A study of Homo sapiens with 4 samples.

Results

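Homologous recombination and the Fanconi anaemia pathway were followed through 44 genes, chosen by name as members of these pathways and without BRCA1 and its complex partners. All 44 were found, 1 entry each, among the 60487 genes of every library. The cells were HCC1937, an established human breast cancer line labelled BRCA1 -/-. The 4 groups had 1 library each: wild-type BRCA1 (wtBRCA1) cells under OTX-015, wtBRCA1 cells under the solvent DMSO, empty vector cells under OTX-015 and empty vector cells under DMSO. OTX-015 (birabresib) is a BET inhibitor: it keeps bromodomain proteins off acetylated chromatin. Every group carries the HCC1937 background. The wtBRCA1 group is labelled wild type. The dose and duration of OTX-015, and whether either line is 1 clone, are not given in the sources used here.

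Homologous recombination copies an intact sister sequence into a broken one. Nucleases first trim the broken ends, RPA coats the exposed strand, BRCA2 and other strand exchange proteins help to pair it with the matching sequence, and helicases and nucleases then take the joined molecules apart. The Fanconi pathway meets links between the DNA strands: a core ubiquitin ligase tags the FANCD2 and FANCI pair, and the tagged pair brings in nucleases and recombination. BRCA1 acts at several of these steps, and tumour cells without it are known for sensitivity to DNA crosslinks and PARP inhibitors.

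Levels are FPKM, fragments scaled to transcript length and library size, so they can be set side by side between genes. No library had a replicate, so no value has an SD and no pair of libraries was tested. Differences are on the log2(FPKM + 1) scale, which understates changes of low genes. Counts past 2-fold use this scale too, so a member can be past 2-fold in FPKM and not be counted. Across all libraries, limma was fitted to all 18304 genes with at least 1 FPKM in at least 1 library, with line and treatment as terms. "Rose" and "fell" refer to a Benjamini-Hochberg adjusted p under 0.05 in that fit. The residual of that fit is how unlike an effect was across the other factor, with 1 degree of freedom per gene. It is moderated towards the residuals of genes at a like level, so p rests largely on those genes. The spread between repeated cultures is not measured. For the line, restored BRCA1 and anything else in which the lines differ cannot be told apart. Where both values of a line lie above or below both of the other, this is description only. The share of all genes so separated was not computed, and the libraries of a line differ in treatment and are not replicates. Of the 44 members, 43 passed the filter and SLX1A did not.

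Summed FPKM ranged from 909314 to 1496107 per library, with both OTX-015 libraries above both DMSO libraries, and the depth behind them is unknown. BRCA1 was listed at 2712 and 171 FPKM in wtBRCA1 cells under OTX-015 and DMSO, against 40.8 and 37.2 FPKM in vector cells, the direction of the labels. All 7 epithelial markers were listed above 1 FPKM in every library, with summed levels of 6996, 5706, 25770 and 9343 FPKM in the wtBRCA1 OTX-015, wtBRCA1 DMSO, vector OTX-015 and vector DMSO libraries. KRT8 alone gave 4476, 3185, 23340 and 8160 FPKM of these sums. Of the 7, 5 differed with the line: KRT5 (4.79 log2) and KRT17 (1.60 log2) rose in wtBRCA1 cells, and KRT19 (-5.63 log2), KRT18 (-2.12 log2) and KRT8 (-1.87 log2) fell (limma adjusted p under 0.05), so keratins moved with the line, as some members did. CDH1 and KRT8 rose under OTX-015 (1.31 and 1.0 log2). Their part in the members' results was not tested. The leukocyte marker CD3E, the endothelial marker VWF and the fibroblast markers COL1A2, COL3A1 and PDGFRB were listed at 0 in all 4 libraries, and PTPRC was at most 0.225 FPKM. The other markers of these lists were detected: CD68 was at 44.6 and 21.9 FPKM in wtBRCA1 cells under OTX-015 and DMSO and at 24.8 and 15.5 FPKM in vector cells, and COL1A1 at 8.39 and 9.78 FPKM in wtBRCA1 cells and 4.01 and 1.86 FPKM in vector cells. PECAM1 was at 2.11 and 3.15 FPKM in wtBRCA1 cells and 0.670 and 4.88 FPKM in vector cells, and CDH5 was listed at 0 in both OTX-015 libraries and at 0.712 and 2.16 FPKM in the wtBRCA1 and vector DMSO libraries. None of these 4 passed the test in either contrast.

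The promoters of 3 members are shown: FANCD2, the member that was lower in both contrasts, MRE11A, lower in wtBRCA1 cells, and FANCA, the highest Fanconi gene by mean. FANCA passed in neither contrast, and RAD51B, also lower in wtBRCA1 cells, is not shown. No result here rests on these promoters. Each window runs from 250 bases before to 50 bases after the RefSeq start (GRCh38.p14), read 5′ to 3′ on the gene's strand. Capitals mark E2F-type letters (TTTCCCGC, TTTGCCGC, TTTCGCGC or TTTGGCGC), the CHR letters (TTTGAA) and the CCAAT box (CCAAT), each searched on both strands. No motif here overlaps another.
FANCD2 (chr3:10026187-10026486, plus strand): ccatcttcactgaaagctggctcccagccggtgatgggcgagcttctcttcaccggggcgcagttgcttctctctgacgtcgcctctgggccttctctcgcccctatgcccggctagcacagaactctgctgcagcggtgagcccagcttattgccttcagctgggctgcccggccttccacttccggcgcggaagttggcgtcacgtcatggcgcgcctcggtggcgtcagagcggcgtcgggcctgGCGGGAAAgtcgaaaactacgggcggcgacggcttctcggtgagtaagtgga
MRE11A (chr11:94493795-94494094, minus strand): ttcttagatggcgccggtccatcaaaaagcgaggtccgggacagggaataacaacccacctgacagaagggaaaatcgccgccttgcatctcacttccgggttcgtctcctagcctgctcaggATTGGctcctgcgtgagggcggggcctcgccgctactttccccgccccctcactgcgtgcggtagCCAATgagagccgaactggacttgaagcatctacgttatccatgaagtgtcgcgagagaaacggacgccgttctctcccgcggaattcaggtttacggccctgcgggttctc
FANCA (chr16:89816598-89816897, minus strand): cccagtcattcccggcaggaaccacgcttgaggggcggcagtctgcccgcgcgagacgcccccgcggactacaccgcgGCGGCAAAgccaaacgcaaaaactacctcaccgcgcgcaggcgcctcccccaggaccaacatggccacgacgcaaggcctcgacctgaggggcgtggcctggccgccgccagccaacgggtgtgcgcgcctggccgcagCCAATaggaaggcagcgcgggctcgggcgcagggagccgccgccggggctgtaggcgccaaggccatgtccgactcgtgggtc

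Promoter windows matched 36 of the 44 members. E2F-type letters, the recognition sequence of S-phase transcription factors, stood in 7 of the 36 windows (19.4%), against 3.3% of 35114 windows in the RefSeq table. These 7 were FANCD2, FANCA, FANCC, EXO1, GEN1, XRCC2 and SLX1A. In FANCD2 the match begins at base 249 of the window, 2 bases before the start, and in FANCA at base 79. CCAAT boxes stood in 41.7% of the members' windows and 34.6% of all, and the CHR letters in 13.9% and 15.2%. The RAD51B window begins 3512 bases inside the GENCODE 29 gene and held none of the 3 motifs. Other windows lie inside the gene too. On the minus strand, the FANCC window ends at 95317959 and its gene at 95426796, and the RAD52 window ends at 949944 and its gene at 990053. A window inside the gene may not be the promoter used in these cells. A match describes the letters only.

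The members covered a wide range of levels. RPA1, the large subunit of the single-strand coat, was the highest by mean and the only member above 100 FPKM in every library. FANCA, a subunit of the Fanconi core, SHFM1, the small acidic partner of BRCA2 also called DSS1 or SEM1, and UBE2T, the E2 enzyme of the Fanconi ligase, followed with means of 122, 118 and 111 FPKM. At the other end, SLX4, the nuclease scaffold, averaged 1.10 FPKM and FANCB, a core subunit, 1.39 FPKM. SLX1A, the nuclease held by SLX4, was listed at 0 in both wtBRCA1 libraries and at 0.426 and 0.331 FPKM in vector cells under OTX-015 and DMSO. It has a near-identical copy, SLX1B, so its value is uncertain. In all, 20 members were above 10 FPKM in every library and 15 stayed under 10 FPKM in all of them. The median member stood at percentile 63.1 of the mean levels of the 18304 genes.

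**Figure D1:**
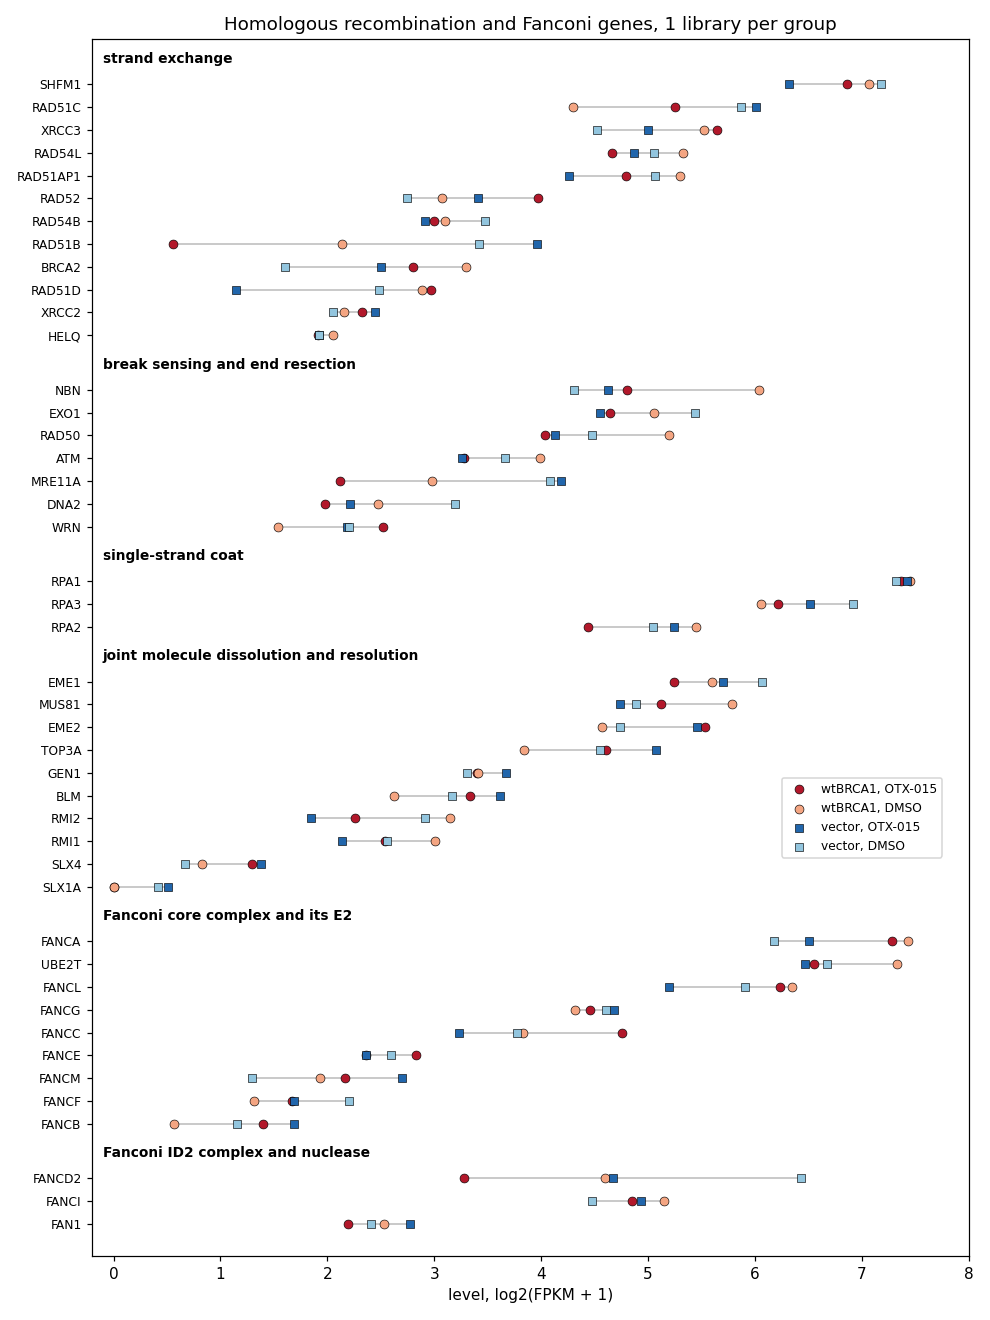
Level of each of the 44 members as log2(FPKM + 1), grouped by role and ordered by mean level within a role. Each point is 1 library (circles wtBRCA1, squares vector; dark OTX-015, light DMSO) and grey lines join the lowest and highest. RPA1 points nearly coincide, while RAD51B and FANCD2 are spread widely.

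Stability across the libraries also differed by member. The highest library was less than 2 times the lowest for 17 of the 43 members kept and at least 3 times for 11. These shares were not computed over all genes, so the counts are not read as a result about the members. RPA1 varied least, at 164 and 174 FPKM in wtBRCA1 cells under OTX-015 and DMSO and 171 and 159 FPKM in vector cells. RAD51B varied most, by a factor of 31.1. HELQ, a helicase that works beside the strand exchange genes, was also level, between 2.77 and 3.16 FPKM.

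The first comparison asked which members differed between wtBRCA1 and vector cells under both treatments. None rose and 3 of 43 fell in wtBRCA1 cells (limma adjusted p under 0.05), FANCD2, RAD51B and MRE11A, a share of 6.98%. Over all genes, 4.75% rose and 3.34% fell in the same fit, so the counts of members are not read as a result about the group. The median differences over the members were -0.02 under OTX-015 and 0.12 under DMSO on the log2 scale, beside 0 and 0.04 over all genes. At an unadjusted p under 0.05, 10 members and 4271 of all genes passed. The same 3 genes were the only members at least 2-fold lower in wtBRCA1 cells under both treatments (4.44% of all genes were), and 0 were at least 2-fold higher under both (6.11% of all genes). Under OTX-015 alone 3 members were past 2-fold on the higher side, RAD51D, FANCC and FANCL, and 3 on the lower (6.98% each, beside 15% and 12.6% of all genes). Under DMSO alone they were 3 on the higher side, BRCA2, NBN and FANCA, and 4 on the lower, RAD51C joining the 3 (6.98% and 9.3%, beside 14.8% and 11.7%).

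FANCD2, which with FANCI forms the clamp that the core complex tags, is on chromosome 3 (10026414 to 10101930, hg38, GENCODE 29). It was at 8.68 and 23.2 FPKM in wtBRCA1 cells under OTX-015 and DMSO, and at 24.5 and 85.4 FPKM in vector cells. Each wtBRCA1 library was below both vector libraries, though 23.2 and 24.5 are close. The line effect was -1.62 ± 0.33 log2 (SE, limma adjusted p = 0.0187). Across 7 other ways of processing, its adjusted p was 0.0283 to 0.11 and 5 kept the call.

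RAD51B, which works in a complex with RAD51C, RAD51D and XRCC2, is on chromosome 14 (67819779 to 68730218). It was at 0.468 and 3.40 FPKM in wtBRCA1 cells under OTX-015 and DMSO, and at 14.6 and 9.73 FPKM in vector cells. The groups do not overlap, and the wtBRCA1 OTX-015 library was below 1 FPKM. The line effect was -2.35 ± 0.51 log2 (SE, limma adjusted p = 0.0243). Only median-of-ratios scaling kept this call among 7 alternatives (adjusted p 0.0464 to 0.126).

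MRE11A, the nuclease of the complex that first meets a break, is on chromosome 11 (94415578 to 94493908). It was at 3.33 and 6.91 FPKM in wtBRCA1 cells under OTX-015 and DMSO, against 17.2 and 16.0 FPKM in vector cells. Both wtBRCA1 libraries were below both vector libraries. The line effect was -1.59 ± 0.39 log2 (SE, limma adjusted p = 0.0371), and 0 of 7 alternatives kept the call (adjusted p 0.0545 to 0.134). The direction held in all 7 for each of these 3 genes.

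**Figure D2:**
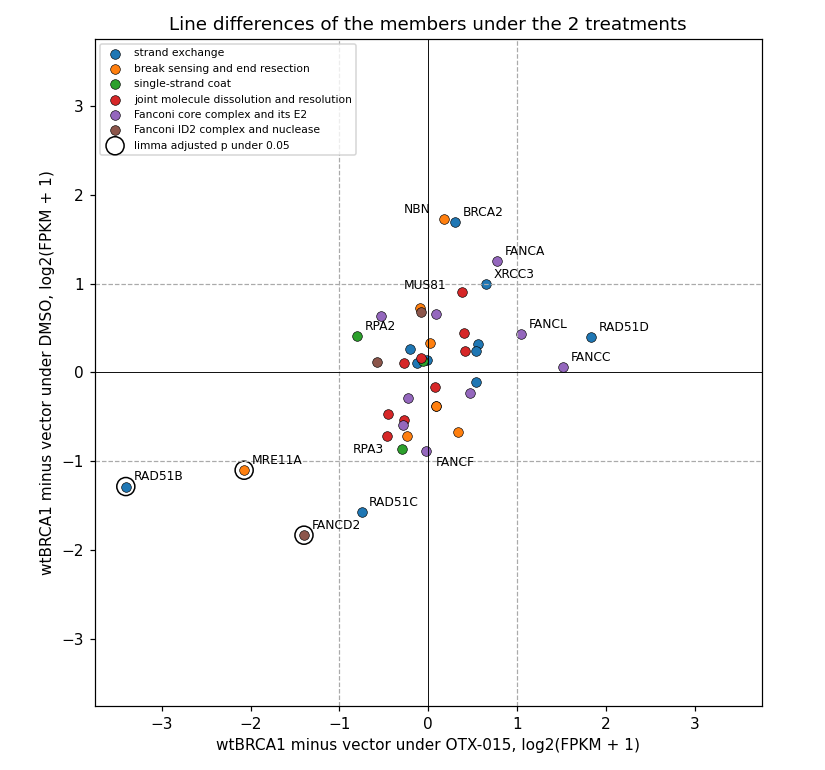
Difference between wtBRCA1 and vector cells for the 43 members kept, on the log2(FPKM + 1) scale, under OTX-015 (x axis) and DMSO (y axis). Each point is 1 gene coloured by role, dashed lines mark 2-fold and rings mark the 3 genes past the limma threshold. RAD51B, MRE11A and FANCD2 lie below -1 on both axes, and no gene lies above 1 on both.

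Among the other strand exchange genes, RAD51C, which is shared by the complexes of RAD51B and of XRCC3, was at 37.2 and 18.7 FPKM in wtBRCA1 cells under OTX-015 and DMSO and at 63.4 and 57.4 FPKM in vector cells. Its difference of -1.16 ± 0.34 log2 did not pass (SE, limma adjusted p = 0.0674). BRCA2, which starts strand exchange, was at 5.97 and 8.82 FPKM in wtBRCA1 cells and at 4.65 and 2.04 FPKM in vector cells, a difference of 1.0 ± 0.44 log2 that did not pass (SE, limma adjusted p = 0.212). Both wtBRCA1 values of BRCA2 were above both vector values, at levels under 10 FPKM. RAD51D, another member of the complex with RAD51B, was at 6.85 and 6.38 FPKM in wtBRCA1 cells and at 1.21 and 4.59 FPKM in vector cells. A readthrough transcript on its strand, RAD51L3-RFFL, was at 2.0, 5.37, 2.45 and 0.276 FPKM in the wtBRCA1 OTX-015, wtBRCA1 DMSO, vector OTX-015 and vector DMSO libraries, so reads could have been divided between them. Of the 12 genes of this role, 5 were higher and 2 lower in wtBRCA1 cells under both treatments, and 5 had opposite signs. Over all 18304 genes, 6316 were higher and 5443 lower under both treatments.

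The partners of MRE11A did not share its difference. NBN, which links the complex to the ATM kinase, was at 26.9 and 64.9 FPKM in wtBRCA1 cells under OTX-015 and DMSO, and at 23.7 and 18.8 FPKM in vector cells. RAD50, the ATPase that tethers DNA ends, was at 15.4 and 35.7 FPKM in wtBRCA1 cells and at 16.5 and 21.2 FPKM in vector cells. Within a library the ratio of NBN to MRE11A does not depend on scaling between libraries. It was 8.06 and 9.39 in wtBRCA1 cells under OTX-015 and DMSO and 1.38 and 1.18 in vector cells, and that of RAD50 to MRE11A was 4.61 and 5.17 against 0.954 and 1.33. Both ratios were higher in each wtBRCA1 library than in either vector library, with no test. These ratios, and the choice of RAD50, RAD51C, FANCI, EME1 and EME2 for description, were made after values were seen.

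Of the 9 genes of the Fanconi core and its E2, 4 were higher and 3 lower in wtBRCA1 cells under both treatments, and none passed the test. Over all 18304 genes these counts were 6316 and 5443. FANCA was at 155 and 172 FPKM in wtBRCA1 cells under OTX-015 and DMSO and at 90.1 and 71.4 FPKM in vector cells. Both wtBRCA1 values were thus above both vector values, which is not read as support because the share of all genes like this is unknown. Its difference was 1.01 ± 0.28 log2 (SE, limma adjusted p = 0.0573). ZNF276, which overlaps FANCA on the opposite strand, was at 49.8 and 61.9 FPKM in wtBRCA1 cells and at 18.2 and 31.2 FPKM in vector cells. Its part in the FANCA values was not tested. FANCL, the ligase subunit that carries the RING domain, was at 74.5 and 80.2 FPKM in wtBRCA1 cells and 35.7 and 59.1 FPKM in vector cells, with a limma adjusted p of 0.189. VRK2, which overlaps FANCL on the opposite strand, was at 75.9 and 63.8 FPKM in wtBRCA1 cells and 40.2 and 42.8 FPKM in vector cells. Its part in the FANCL values was not tested. FANCI, the partner of FANCD2, was at 27.9 and 34.6 FPKM in wtBRCA1 cells and at 29.5 and 21.3 FPKM in vector cells, overlapping between the lines. FANCI to FANCD2 thus stood at 3.21 and 1.49 in wtBRCA1 cells under OTX-015 and DMSO and at 1.20 and 0.249 in vector cells. In the vector DMSO library alone the FANCD2 transcript was above that of its partner.

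**Figure D3:**
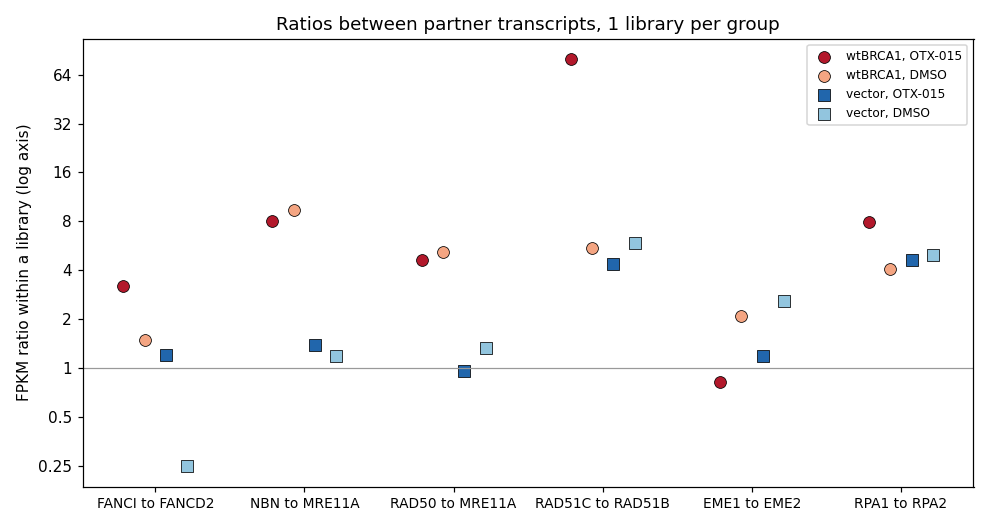
FPKM ratio between transcripts of partner proteins within each library, on a log axis. Each point is 1 library (circles wtBRCA1, squares vector; dark OTX-015, light DMSO). FANCI to FANCD2 is below 1 in the vector DMSO library only, the ratios to MRE11A are higher in both wtBRCA1 libraries, and RAD51C to RAD51B is 79.6 in the wtBRCA1 OTX-015 library against 4.35 to 5.90 in the others.

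The joint molecule genes, which take crossed DNA molecules apart, had 3 members higher and 3 lower in wtBRCA1 cells under both treatments, of 9 kept. Over all 18304 genes these counts were 6316 and 5443. None of the 9 was 2-fold apart in either treatment. The single-strand coat had no member past the test for the line.

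The second comparison asked which members differed between OTX-015 and DMSO in both lines. None rose and 1 of 43 fell, FANCD2 (2.33% of the members, beside 2.58% of all genes that fell and 3.57% that rose). At an unadjusted p under 0.05, 3 members and 4156 of all genes passed, the other 2 members being RMI2 and EME2. The median differences over the members were -0.14 log2 in wtBRCA1 cells and 0.0 log2 in vector cells, against 0 over all genes in both lines. Past 2-fold on the log2(FPKM + 1) scale in wtBRCA1 cells were 0 members on the higher side (0%, beside 13% of all genes). On the lower side were 5, FANCD2, RAD51B, NBN, RAD50 and RPA2 (11.6%, beside 13.4%). In FPKM, FANCB and WRN were 3.43 and 2.49 times their DMSO level there, and MRE11A and RMI2 0.483 and 0.48 times. In vector cells the members past 2-fold on the log2(FPKM + 1) scale were 1 on the higher side, FANCM (2.33%, beside 13%). On the lower side were 3, FANCD2, RAD51D and RMI2 (6.98%, beside 12.7%). In FPKM, SLX4 and BRCA2 were 2.73 and 2.28 times their DMSO level there, and DNA2 0.447 times. FANCM, the translocase that brings the core complex to DNA, was at 5.47 and 1.46 FPKM in vector cells under OTX-015 and DMSO. On the log2(FPKM + 1) scale FANCD2 was the only member 2-fold lower in both lines (4.43% of all genes were). None was 2-fold higher in both (4.58% of all genes). In FPKM, RMI2 was also more than 2-fold lower in both, at 0.48 times its DMSO level in wtBRCA1 cells and 0.397 times in vector cells.

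FANCD2 under OTX-015 was 0.374 times its DMSO level in wtBRCA1 cells and 0.288 times in vector cells. The effect was -1.54 ± 0.33 log2 (SE, limma adjusted p = 0.0296), and its adjusted p was 0.0436 to 0.171 across the alternatives, 3 of 7 of which kept the call. FANCD2 shares its locus with FANCD2OS on the opposite strand, which was at 15.7 and 42.7 FPKM in wtBRCA1 cells under OTX-015 and DMSO and at 23.8 and 58.1 FPKM in vector cells. Both genes were thus lower in each OTX-015 library than in the DMSO library of that line. The kit marks strand, but no source used here says whether the quantification used it, so reads of the 2 genes may not have been told apart. The pseudogene FANCD2P2 was listed below 1 FPKM in all libraries.

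FANCD2 works mainly in S phase. Of 22 S phase and proliferation genes, 0 rose and 2 fell under OTX-015, MCM5, a subunit of the replicative helicase (-1.35 log2, limma adjusted p = 0.0383), and TOP2A, a topoisomerase of dividing cells (-1.10 log2, limma adjusted p = 0.0459), where 2.58% of all genes tested fell. An unadjusted limma p under 0.05 was reached by 10 of the 22, against 4156 of the 18304 genes tested. These 10 were of both signs. TK1, RRM2 and CCNE2 were higher under OTX-015 (0.81, 0.789 and 0.828 log2), and MCM5, TOP2A, MCM2, CDC45, E2F2, CCNA2 and CCNB1 were lower. In both lines 12 of the 22 were lower and 5 higher under OTX-015, against 5531 and 6038 of the 18304. The list's medians were -0.06 log2 in wtBRCA1 cells and -0.25 in vector cells, and its summed level was 2422 and 2207 FPKM in wtBRCA1 cells under OTX-015 and DMSO and 2432 and 2573 FPKM in vector cells. For the line, 1 of the 22 rose (TK1, 0.87 log2, limma adjusted p = 0.0496) and 1 fell (RRM1, -1.18 log2, limma adjusted p = 0.0251). Over all genes tested, 4.75% rose and 3.34% fell with the line. Their part in the FANCD2 result was not tested. In bulk RNA, fewer cells in a phase and less RNA per cell cannot be told apart.

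**Figure D4:**
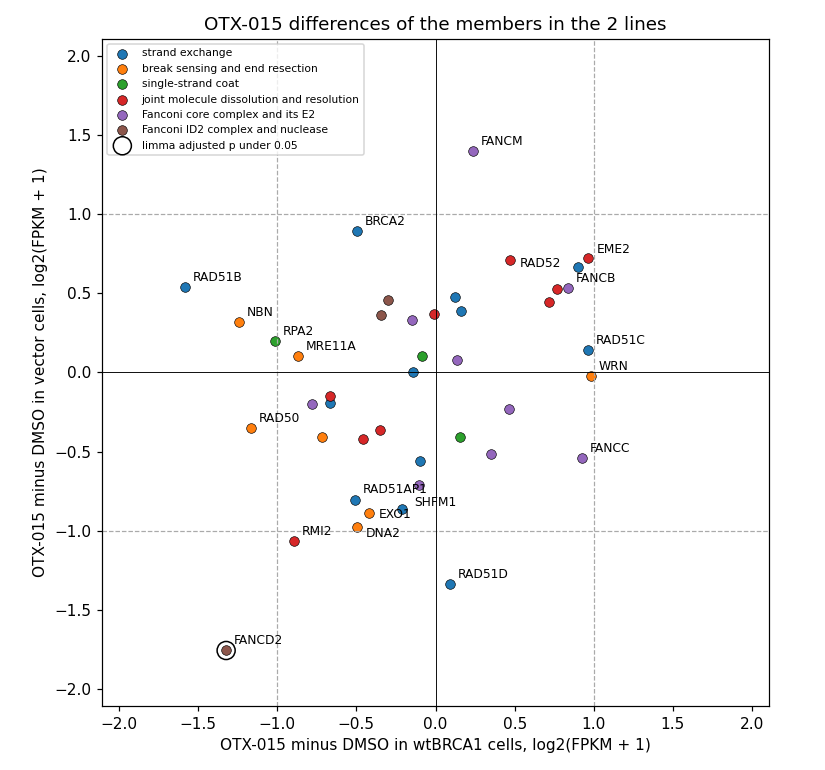
OTX-015 minus DMSO for the 43 members kept, on the log2(FPKM + 1) scale, in wtBRCA1 cells (x axis) and vector cells (y axis). Each point is 1 gene coloured by role, dashed lines mark 2-fold and the ring marks FANCD2, past the limma threshold. Break sensing and end resection genes, in orange, lie mostly left of 0, and FANCD2 is the only gene below -1 on both axes.

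Break sensing and end resection had the lowest median of the roles under OTX-015 in both lines, -0.72 log2 in wtBRCA1 cells and -0.35 in vector cells. None of its 7 members passed the test. In wtBRCA1 cells 6 of 7 were lower under OTX-015 and in vector cells 5 of 7, with 4 lower in both. Over the 18304 genes tested, 8685 were lower in wtBRCA1 cells, 8448 in vector cells and 5531 in both. The sign counts of this role were not tested. EXO1, a long-range end resection nuclease, was at 23.9 and 32.3 FPKM in wtBRCA1 cells under OTX-015 and DMSO and at 22.4 and 42.4 FPKM in vector cells. DNA2, the other such nuclease, was at 2.94 and 4.56 FPKM in wtBRCA1 cells and at 3.65 and 8.16 FPKM in vector cells. Both were lower under OTX-015 in both lines, with limma adjusted p of 0.28 and 0.307. WRN, a helicase, closed this role at 4.74 and 1.90 FPKM in wtBRCA1 cells and 3.55 and 3.62 FPKM in vector cells.

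The joint molecule genes split. EME2 and EME1 are alternative partners of the nuclease MUS81. EME2 was at 45.3 and 22.8 FPKM in wtBRCA1 cells under OTX-015 and DMSO and at 43.1 and 25.7 FPKM in vector cells, and EME1 at 37.0 and 47.4 FPKM in wtBRCA1 cells and 51.1 and 66.0 FPKM in vector cells. EME1 to EME2 was 0.816 and 2.08 in wtBRCA1 cells under OTX-015 and DMSO and 1.19 and 2.57 in vector cells, lower in each OTX-015 library. EME2 alone did not pass (0.84 ± 0.32 log2, SE, limma adjusted p = 0.153), nor did EME1 (limma adjusted p = 0.535). Expressed genes overlap both on the opposite strand, SPSB3 for EME2 and LRRC59 for EME1. RMI2, which stabilises the BLM dissolution complex, was at 3.78 and 7.88 FPKM in wtBRCA1 cells and at 2.60 and 6.53 FPKM in vector cells (limma adjusted p = 0.163). BLM, its helicase, and TOP3A, its topoisomerase, had positive differences in both lines, of 0.71 and 0.77 log2 in wtBRCA1 cells and 0.45 and 0.52 in vector cells, and did not pass. In this role 4 of 9 genes were higher and 4 lower in both lines, beside 6038 and 5531 of the 18304 genes tested.

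The third comparison asked where the OTX-015 difference was unlike between the lines. It has no test, because 1 library per group leaves no residual for it. BRCA1 itself was at 2712 and 171 FPKM in wtBRCA1 cells under OTX-015 and DMSO, against 40.8 and 37.2 FPKM in vector cells. Its level in wtBRCA1 cells was thus not the same under the treatments, and its part in the gaps was not tested. Among the members, the 6 largest gaps were those of RAD51B, NBN, FANCC, RAD51D, BRCA2 and RPA2. RAD51B was 0.138 times its DMSO level under OTX-015 in wtBRCA1 cells and 1.5 times in vector cells, a gap of -2.12 log2. NBN was 0.415 times its DMSO level in wtBRCA1 cells and 1.26 times in vector cells (gap -1.56 log2). With RAD50 at -1.16 and MRE11A at -0.87 log2 in wtBRCA1 cells, the 3 subunits of this complex were all lower under OTX-015 there, against 0.32, -0.35 and 0.10 log2 for NBN, RAD50 and MRE11A in vector cells. NBN overlaps DECR1 on the opposite strand, which was at 93.0 and 200 FPKM in wtBRCA1 cells under OTX-015 and DMSO and at 76.0 and 87.9 FPKM in vector cells, a high wtBRCA1 DMSO value as for NBN.

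FANCC, a core subunit, was at 26.0 and 13.2 FPKM in wtBRCA1 cells under OTX-015 and DMSO and at 8.42 and 12.7 FPKM in vector cells, a gap of 1.46 log2. RAD51D had a gap of 1.43 log2, with its lowest value, 1.21 FPKM, in the vector OTX-015 library. BRCA2 was 0.677 times its DMSO level in wtBRCA1 cells and 2.28 times in vector cells, a gap of -1.39 log2, with all values under 10 FPKM. RPA2, the middle subunit of the coat, was at 20.6 and 42.7 FPKM in wtBRCA1 cells and at 36.8 and 31.9 FPKM in vector cells (gap -1.22 log2). RPA1 and RPA3, the large and small subunits, had gaps of -0.19 and 0.57 log2. RPA1 to RPA2 was 7.93 in the wtBRCA1 OTX-015 library against 4.07 to 4.97 in the others. No member was at least 2-fold higher in 1 line and at least 2-fold lower in the other.

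The remaining members did not pass in either contrast and are given by the range of their 4 libraries. RAD54L, a motor that drives strand exchange, ran between 24.3 and 39.1 FPKM, and its relative RAD54B between 6.56 and 10.2 FPKM. RAD51AP1, which promotes strand exchange, ran between 18.1 and 38.4 FPKM and was lower under OTX-015 in both lines (-0.51 log2 in wtBRCA1 cells and -0.80 in vector cells). RAD52, an annealing protein, ran between 5.70 and 14.6 FPKM with the opposite signs, 0.90 and 0.67 log2. XRCC2 kept between 3.16 and 4.44 FPKM and XRCC3 between 22.1 and 49.2 FPKM, the higher 2 values of XRCC3 being those of wtBRCA1 cells. SHFM1 was highest in the vector DMSO library at 144 FPKM and lowest in the vector OTX-015 library at 79.0 FPKM. ATM, the kinase that signals breaks, ran between 8.56 and 14.9 FPKM, lower under OTX-015 in both lines. RPA3 ran between 65.8 and 120 FPKM.

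MUS81 ran between 25.7 and 54.2 FPKM, its highest value in the wtBRCA1 DMSO library, and it overlaps the abundant gene CFL1, listed at up to 884 FPKM on the opposite strand. GEN1, a nuclease that cuts crossed junctions, ran between 8.86 and 11.8 FPKM, and RMI1, a subunit of the BLM complex, between 3.40 and 7.02 FPKM. In the Fanconi core, UBE2T ran between 87.8 and 160 FPKM, FANCG between 19.0 and 24.7 FPKM, FANCE between 4.14 and 6.12 FPKM and FANCF between 1.49 and 3.60 FPKM. FANCB ran between 0.478 and 2.23 FPKM and SLX4 between 0.586 and 1.60 FPKM, both close to the filter. FAN1, the nuclease that the tagged pair brings in, kept between 3.56 and 5.82 FPKM. UBE2T had its highest value in the wtBRCA1 DMSO library, as did NBN, RAD50, ATM, MUS81, RAD54L, RAD51AP1, BRCA2, RMI1, RMI2, FANCA, FANCL, FANCI, RPA1, RPA2 and HELQ. The share of all genes with their highest value there was not computed, so the list is not read as a result about the members.

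BRCA1 and its partners, 11 genes outside the 44, gave 2 that rose in wtBRCA1 cells and 0 that fell, beside 4.75% and 3.34% of all genes. They were BRCA1, the gene that the lines are labelled by (4.10 log2, limma adjusted p = 0.00768), and BABAM1, a scaffold of the BRCA1-A complex (1.49 log2, limma adjusted p = 0.0126). BABAM1 was thus the only partner past the threshold. Under OTX-015, 0 of the 11 rose or fell, beside 3.57% and 2.58% of all genes. An unadjusted limma p under 0.05 was reached by 3, against 4156 of the 18304 genes tested. BABAM1 was at 128 and 181 FPKM in wtBRCA1 cells under OTX-015 and DMSO, against 44.2 and 64.9 FPKM in vector cells.

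Of the 44 members, 26 overlap another gene listed at 1 FPKM or more, 23 of them on the opposite strand, so their values may hold reads of a neighbour. RAD51B and MRE11A are among them, each with a gene on the opposite strand. CTD-2325P2.4, which overlaps RAD51B, was at 3.48 FPKM in the wtBRCA1 DMSO library and listed at 0 in the other 3. ANKRD49, which overlaps MRE11A, was at 1.36 and 3.62 FPKM in wtBRCA1 cells under OTX-015 and DMSO and at 5.78 and 3.81 FPKM in vector cells, so both wtBRCA1 values were below both vector values, as for MRE11A. Its part in the MRE11A result was not tested.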

How the data were processed

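Poly(A)-selected RNA from HCC1937 cells was sequenced from a directional kit, per the labels' protocols. The deposited FPKM values were made by the authors, whose processing notes name TopHat2, Cufflinks and the build hg38. Versions, annotation and scaling between libraries are not given in the sources used here. No counts were used, so depth is unknown: among genes under 0.3 FPKM at most 4 of 588 shared a ratio between libraries to 3 decimals.

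Libraries were joined on the Ensembl identifier (94.2% in GENCODE 29), 7088 genes of short structural RNA were dropped, and 75 repeated symbols were summed. Genes with at least 1 FPKM in at least 1 library were analysed as log2(FPKM + 1) in limma 3.58.1 (R 4.3.3), with line and treatment as terms, the mean-variance trend and Benjamini-Hochberg adjustment over all genes, leaving 1 residual degree of freedom per gene. The procedure was tested on simulated data that were additive, with planted changes larger than any effect called for a member. That test therefore does not bear on smaller effects, on effects unlike between lines or treatments, or on the spread between cultures. Values are given for members past 0.05, at least 2-fold in both parallel pairs, among the 6 largest gaps, or leading or closing a role, and the other named genes were chosen after their values were seen. The members and lists were chosen with earlier results of these data known. Some genes of the comparison and marker lists are not reported here. Alternatives covered pseudocount, filter, scaling and trend. Python 3.11.15, pandas 2.3.3, numpy 2.4.6 and matplotlib 3.10.9 were used.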

Additional observations from a re-analysis of the deposited data

How the results depend on the processing

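The members that fell in wtBRCA1 cells numbered 3, and 2 after median-of-ratios scaling, 1 with a pseudocount of 0.1 or 5, at an FPKM filter of 5 or after quantile normalization, and 0 with no filter or without the trend. The member that fell under OTX-015 (1) came to 0 with a pseudocount of 5, with no filter, after quantile normalization and without the trend. Members that rose stayed at 0 in both contrasts under all 7. With a pseudocount of 0.1, members at least 2-fold apart numbered 2 lower in both lines under OTX-015, 3 higher in vector cells, and in wtBRCA1 cells 2 higher under OTX-015, and with a pseudocount of 5 the count lower in wtBRCA1 cells under both treatments was 1. At that pseudocount the 2-fold counts were 0 higher and 1 lower for OTX-015 in vector cells, 2 lower for OTX-015 in wtBRCA1 cells, 1 higher for wtBRCA1 under OTX-015 and 2 higher and 2 lower under DMSO. Quantile normalization gave 2 higher for OTX-015 in wtBRCA1 cells and 2 higher for wtBRCA1 under OTX-015. The cause was not tested. Median-of-ratios scaling removed at most 0.09 log2 from any pair. No paired analysis was possible because each group had 1 library, which leaves no replicate numbers to block on. The fit's line and treatment terms already set each contrast within the other factor. The depth is unknown, so no counting error can be given for any member.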
